A study of Mus musculus with 2 samples.

Results

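Of the 2560 macroH2A1 peaks deposited for mouse embryonic stem cells, 30 (1.17%, exact 95% binomial interval 0.792 to 1.67%) covered the start of the gene to which they were assigned. The description below concerns 9 of them, at Pgk1, Tmem117, Sepn1, Efcab6, Prx, Cacna1i, Hrg, Selplg and Cxcl11. These genes were selected on the deposited peak and gene coordinates, as genes with a symbol whose peak runs from before to after the gene start, so the overlap itself is the choice and not a result. The start was the lower gene coordinate for genes on the plus strand and the upper one for genes on the minus strand. All 9 listed genes were found, each with 1 peak. They are part of 16 genes with a symbol and a covered start, beside 14 without a symbol.

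The peaks come from a macroH2A1 ChIP library of E14 cells, an established male mouse embryonic stem cell line, made with an antibody raised against residues 128 to 361 of mouse macroH2A1. A second library was made from the same line with non-specific IgG, and no values of it were analysed here. Both cultures were untreated and grew on gelatine in medium with 20% serum and leukemia inhibitory factor at 1000 U/ml. With 1 library per antibody and no read count or score per peak, no value below has a replicate error, the depth is unknown, and no test was run. The list holds no expression values, so neither the stem cell identity nor the activity of these genes could be checked.

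MacroH2A1 is a histone H2A variant with a large globular macro domain joined to the histone fold by a linker. It replaces H2A in a subset of nucleosomes, and it is best known for its accumulation on the inactive X chromosome of female cells and for broad occupancy of silent chromatin, although it also lies at some active genes. A gene start is where RNA polymerase is loaded, and promoters rich in CpG dinucleotides are typical of broadly used genes, while CpG-poor promoters are typical of tissue-restricted ones.

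The 9 genes have unlike roles. Pgk1 encodes phosphoglycerate kinase, a glycolytic enzyme that nearly all cells use. Sepn1, now called Selenon, encodes selenoprotein N of the endoplasmic reticulum, known for its role in muscle. Cacna1i encodes the pore subunit of a T-type voltage-gated calcium channel of neurons, and Tmem117 a membrane protein that spans the membrane several times. Prx encodes periaxin, a scaffold protein of myelinating Schwann cells, and Efcab6 a protein with EF-hand calcium-binding motifs. Hrg encodes histidine-rich glycoprotein, a plasma protein made by the liver. Selplg encodes PSGL-1, the leukocyte ligand of P-selectin, and Cxcl11 a chemokine of the CXC family. In the RefSeq gene table, 8 of the 9 are protein-coding. Cxcl11 is a transcribed pseudogene in that table, whose assembly is of the C57BL/6J strain.

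Promoter sequences from RefSeq, in build GRCm38.p6, show how far the DNA at these starts differs. Of the 9 genes, 6 matched the promoter table, the other 3 being Efcab6, Selplg and Cxcl11. Shown are 3 CpG-rich and 2 CpG-poor promoters, 250 bases before to 50 bases after the RefSeq start, written 5′ to 3′ along the gene, with each CpG in capitals. This build is later than that of the peaks, so its coordinates are not those of the peaks. The positions are chrX:106186850-106187149 (plus strand) for Pgk1, chr15:94628935-94629234 (plus strand) for Tmem117, chr4:134552117-134552416 (minus strand) for Sepn1, chr7:27499074-27499373 (plus strand) for Prx and chr16:22950822-22951121 (plus strand) for Hrg.
Pgk1: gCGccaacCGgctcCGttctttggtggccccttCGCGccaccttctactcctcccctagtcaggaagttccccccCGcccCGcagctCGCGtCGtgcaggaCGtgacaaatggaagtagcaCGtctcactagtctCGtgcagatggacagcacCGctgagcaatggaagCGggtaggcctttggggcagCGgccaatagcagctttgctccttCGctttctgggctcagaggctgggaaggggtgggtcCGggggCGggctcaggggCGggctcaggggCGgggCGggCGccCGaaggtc
Tmem117: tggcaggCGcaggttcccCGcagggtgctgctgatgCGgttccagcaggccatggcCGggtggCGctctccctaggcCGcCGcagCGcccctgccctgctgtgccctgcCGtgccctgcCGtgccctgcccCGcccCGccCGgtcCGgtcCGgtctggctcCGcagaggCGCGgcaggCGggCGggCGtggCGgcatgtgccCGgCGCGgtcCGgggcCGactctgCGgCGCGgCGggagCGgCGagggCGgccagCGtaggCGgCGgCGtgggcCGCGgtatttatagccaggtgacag
Sepn1: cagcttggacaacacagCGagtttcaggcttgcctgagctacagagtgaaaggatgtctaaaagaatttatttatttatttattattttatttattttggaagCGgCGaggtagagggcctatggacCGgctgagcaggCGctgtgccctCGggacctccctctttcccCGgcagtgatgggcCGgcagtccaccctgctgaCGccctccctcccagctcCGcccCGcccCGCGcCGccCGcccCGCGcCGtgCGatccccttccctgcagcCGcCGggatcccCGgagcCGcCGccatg
Prx: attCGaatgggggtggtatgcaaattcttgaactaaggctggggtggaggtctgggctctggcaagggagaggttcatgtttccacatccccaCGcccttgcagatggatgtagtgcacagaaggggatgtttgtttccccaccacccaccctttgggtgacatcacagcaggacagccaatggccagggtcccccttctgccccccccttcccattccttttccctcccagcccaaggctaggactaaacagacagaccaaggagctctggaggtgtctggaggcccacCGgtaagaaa
Hrg: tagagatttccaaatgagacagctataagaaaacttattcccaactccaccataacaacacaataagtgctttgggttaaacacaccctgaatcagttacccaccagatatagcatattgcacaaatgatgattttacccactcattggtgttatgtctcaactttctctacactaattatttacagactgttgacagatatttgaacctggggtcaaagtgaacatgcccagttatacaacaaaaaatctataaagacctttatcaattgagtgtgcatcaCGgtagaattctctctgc

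Tmem117 had the most CpGs of the 6, 40 in 300 bases, with a GC content of 78.0% and a ratio of observed to expected CpGs of 0.88. Sepn1 had 24 CpGs and a ratio of 0.85, Pgk1 24 and 0.72, and Cacna1i, whose promoter is not printed, 23 and 0.79. The promoters of Prx and Hrg were of the other kind, with 3 CpGs (ratio 0.12) and 1 CpG (ratio 0.10). In Hrg the GC content was 36.7%. The ratio was above 0.6, a common limit for CpG islands, in 4 of 6 member promoters, against 35.8% of all 32851 promoters in the table. Counted by gene, with the highest ratio where a gene has several promoters, 51.4% of 17274 protein-coding genes lay above 0.6, as did 58.2% of the 985 with a peak elsewhere. With 6 promoters, 4 above the limit cannot be set apart from these shares. Peaks over a start were found at promoters of both kinds. The RefSeq starts of Cacna1i, 1 of the 4, and of Prx may lie outside their peaks, as described below.

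**Figure D1:**
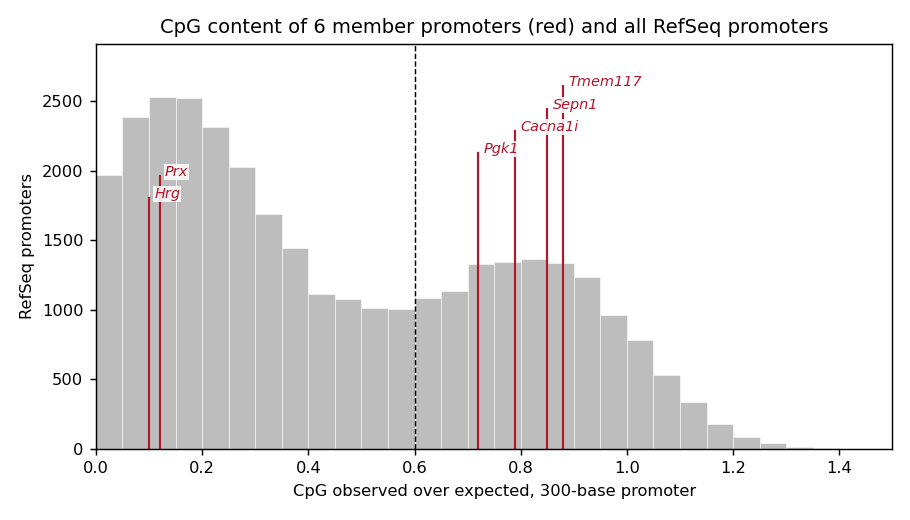
Ratio of observed to expected CpGs (x axis) in all RefSeq promoters, as a histogram of promoter counts (y axis), with the 6 member promoters as red lines and the limit of 0.6 dashed. Hrg and Prx fall at 0.10 and 0.12, and Pgk1, Cacna1i, Sepn1 and Tmem117 between 0.72 and 0.88.

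Short promoter motifs also differed between them, searched on both strands. The GC box GGGCGG was found 5 times in Pgk1 and 4 times each in Sepn1 and Tmem117, and in none of Cacna1i, Prx and Hrg, against at least 1 match in 35.7% of all promoters. Of the 5 matches of Pgk1, 4 lie near the right end of the printed sequence. The CCAAT box (CCAAT) was found in Pgk1, Prx and Hrg (1 each; 37.4% of all promoters). A TATAAA match was found in Hrg and Tmem117 (1 each; 13.6% of all promoters). These are matches of letters within these windows, and binding of a factor was not measured.

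The peaks lay mostly before the gene start. The offset of the peak middle from the start, negative before the start and positive inside the gene, ran from -1044 bp at Sepn1 to 765 bp at Cxcl11, with a median of -666 bp. The middle lay before the start at 7 of the 9 genes and after it at 2, Hrg and Cxcl11. The other 21 start-covering peaks of the list had a median offset of 144 bp, with 9 middles before and 12 after the start. The difference in offset was not tested, since the rule bounds the offset by the width of the peak and the 9 genes were picked with their values known.

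At Sepn1 (chromosome 4, minus strand) the peak ran from 134107850 to 134110400 in mm9 (2551 bp), and 2319 bp of it lay before the start. That is the widest peak of the 9 and ranks 50 from the widest of all 2560. At Cacna1i (chromosome 15, plus strand) it ran from 80126850 to 80129250 (2401 bp), with 1995 bp before the start and a middle at -795 bp. The Prx peak (chromosome 7, plus strand, 28282700 to 28284400, 1701 bp) had nearly the same offset, -793 bp, and reached only 58 bp into the gene. In these 3 genes 83.1 to 96.6% of the peak lay before the gene.

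Efcab6 and Tmem117 lie on chromosome 15 as well, and their offsets of -671 and -666 bp were close to each other. The Efcab6 peak ran from 83895500 to 83897400 (1901 bp, minus strand), with 280 bp inside the gene and 1621 bp before its start. In RefSeq the next protein-coding gene on that side, Sult4a1, lies 1071 bp from Efcab6. Whether the peak reaches Sult4a1 was not determined, since the annotated length of Efcab6 differs between the sources. The Tmem117 peak ran from 94457900 to 94460000 (2101 bp, plus strand), with 385 bp inside. Chromosome 15 thus held 3 of the 9 genes and 117 of the 2560 peaks. The Selplg peak on chromosome 5 (114280250 to 114281800, 1551 bp, minus strand) had its middle at -585 bp and 191 bp inside the gene.

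Pgk1 differed from these 6 in position. Its peak (chromosome X, 103381200 to 103383500, 2301 bp, plus strand) had 1346 bp before and 955 bp from the start onward, and its middle lay at -196 bp, the smallest distance of the 9. At Hrg (chromosome 16, 22950950 to 22952150, 1201 bp, plus strand) 237 bp lay before the start and 964 bp inside the gene, an offset of 363 bp. This was the narrowest of the 9 peaks. At Cxcl11 (chromosome 5, 92790600 to 92792350, 1751 bp, minus strand) 110 bp lay before the start and 1641 bp inside. In RefSeq another protein-coding gene, Art3, overlaps Cxcl11, and none of the other members has such an overlap. The whole stretch from 250 bp before to 50 bp after the deposited start was inside the peak at 7 genes, and not at Hrg and Cxcl11. This was not counted for the other start-covering peaks, so it cannot be called particular to the 9.

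**Figure D2:**
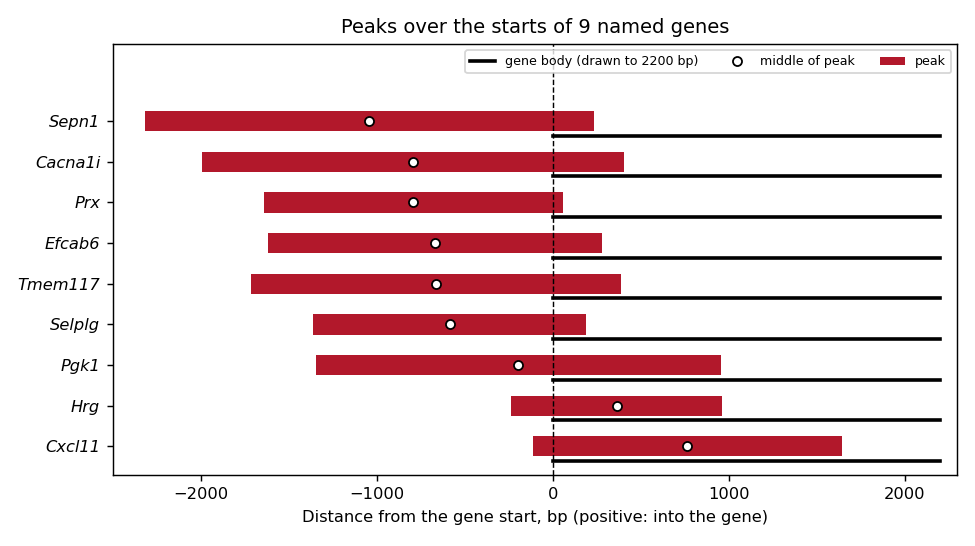
Each red bar is the peak of 1 gene, placed by its distance in bp from the gene start (x axis, dashed line at 0, positive into the gene), with a circle at the peak middle and a black line for the gene body, drawn to 2200 bp. The middles of Sepn1, Cacna1i, Prx, Efcab6, Tmem117, Selplg and Pgk1 lie before the start, from -1044 to -196 bp, and those of Hrg and Cxcl11 after it, at 363 and 765 bp.

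The rule draws a sharp line through a graded set of positions. Just inside it, the start of Prx lay 57 bp from the peak end, that of Cxcl11 110 bp and that of Selplg 190 bp, on coordinates that lie on a grid of 50 bp. Just outside it, peaks ended 34 bp short of the start of Crmp1, 57 bp short of BC029684 and 85 bp short of Pcdhb5. There were 10 peaks of genes with a symbol that missed the start by 300 bp or less, and 9 of them lay before it.

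The position also depends on which start is annotated. The deposited gene length equalled that of RefSeq for Sepn1 (14275 bp) and Tmem117 (466913 bp), and was within 200 bp of it for Pgk1, Hrg, Prx and Cxcl11. At Prx the RefSeq length minus the deposited one was -154 bp, larger in size than the 57 bp by which its start lay inside the peak. If the gene is shorter at its start, the RefSeq start of Prx falls outside the peak. RefSeq gives a longer gene for Cacna1i (by 11.2 kb), Efcab6 (by 9.7 kb) and Selplg (by 2.8 kb). For these 3 genes the difference exceeds the peak width. At which end the gene is longer was not determined for Efcab6 and Selplg. For Cacna1i, Tmem117 on the same chromosome gives a guide. The Tmem117 start is 94459616 in the list, and its RefSeq promoter is at 94628935-94629234. For Cacna1i these are 80128845 and 80286988-80287287, a shift smaller by about 11.2 kb. If the builds are shifted alike at both genes, the added stretch lies before the deposited Cacna1i start. The peak then lies inside the RefSeq gene and not over its start. The Cacna1i promoter values above belong to the RefSeq start and may not describe the DNA under the peak. Over the 6 genes of like length in both sources the median offset was -431 bp.

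Widths at these starts leaned to the upper part of the list. The median over the 9 peaks was 1901 bp, against 1651 bp for the other 21 start-covering peaks and 1551 bp for all 2560. The narrowest peak of the list was 1051 bp. Of the 9, 7 were wider than 1551 bp, Selplg was exactly 1551 bp and Hrg was narrower. The width of Sepn1 exceeded that of 97.9% of all peaks, Cacna1i 96.8%, Pgk1 95.4% and Tmem117 91.3%. Efcab6 followed with 78.3%, Cxcl11 with 66.1%, Prx with 61.4%, Selplg with 45.9% and Hrg with 13.9%. Width is tied to the rule, since a wide peak is more likely to reach a start: of peaks wider than 2000 bp, 2.06% (8 of 388) covered one, and of the narrower ones 1.01% (22 of 2172).

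Each peak name ends in a number from 1 to 2560, whose meaning is not given in the sources used here. Low numbers go with wide peaks (Spearman's rho = -0.60 across the 2560 peaks, which are not independent replicates). Pgk1 had the number 6, the lowest of the 30 start-covering peaks, followed among the 9 genes by Tmem117 with 134, Sepn1 with 207, Efcab6 with 297, Prx with 384, Cacna1i with 485 and Hrg with 624. Cxcl11 with 1707 and Selplg with 2025 stood at the far end. Numbers up to 512 were held by 6 of the 9 and by 6 of the other 21 start-covering peaks, against 512 of all 2560 peaks. Of the other 21, those 6 were all among the 14 of genes without a symbol, and none was among the 7 of other genes with a symbol. Hrg was unlike the others in joining a fairly low number with a narrow peak.

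**Figure D3:**
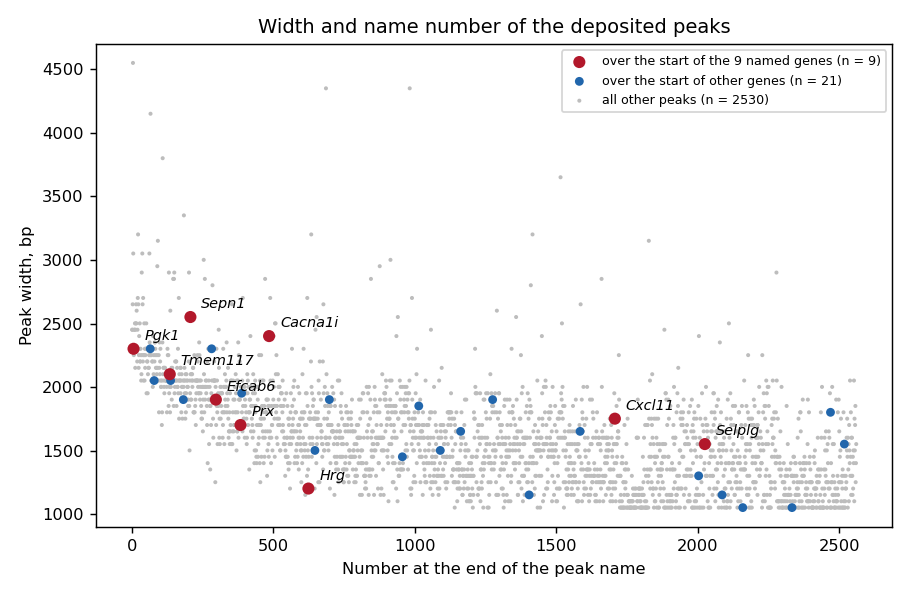
Peak width in bp (y axis) against the number at the end of the peak name (x axis) for the 9 named genes (red), the other 21 start-covering peaks (blue) and all remaining peaks (grey). Sepn1, Cacna1i, Pgk1 and Tmem117 are wider than 2000 bp, and Cxcl11 and Selplg lie at high numbers.

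None of the 9 genes had a further peak assigned to it, where 316 of the 2132 assigned genes (14.8%) had 2 or more. Assignment goes to the nearest gene start, so a second peak inside a long gene can stand under another name. This was the case at Tmem117, the longest of the 9 genes at 466.9 kb. A peak of 1401 bp (94536150 to 94537550) lay inside it, 77.2 kb from its start, and was assigned to ENSMUSG00000077686, a gene without a symbol. No other peak lay inside any of the other 8 genes or within 10 kb of them, although Efcab6 spans 198.6 kb and Cacna1i 99.9 kb in the list.

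Surroundings differed widely between the genes. The nearest other peak lay 41.6 kb away at Selplg, 73.0 kb at Hrg and 76.1 kb at Tmem117, so that 3 of 9 had another peak within 100 kb, as had 767 of all 2558 distinct regions (30.0%). The median over the 9 was 228.1 kb, against 224 kb over all regions. At Selplg the neighbour was a peak of 1651 bp listed under Tmem119, past the end of Selplg, and 7 other peaks in all lay within 1000 kb of the start. At Hrg it was a peak of 1851 bp (22876100 to 22877950) assigned to Ahsg, which encodes the plasma protein fetuin-A. Hrg and Ahsg belong to the same cystatin superfamily, and RefSeq places Fetub, another gene of it, next to Hrg on the side of its start.

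Pgk1 was the most isolated. No other peak lay within 1000 kb of it, and the nearest was 2357.2 kb away. Of all regions, 98.2% had a nearer neighbour. Chromosome X held 26 of the 2560 peaks. The Pgk1 peak was the widest of them (2301 bp, the next 1901 bp, the median 1601 bp), had the lowest number (6, the next 191) and was the only one over a gene start. Cxcl11 and Selplg share chromosome 5, which held 250 peaks, with their own nearest peaks 530.3 and 41.6 kb away.

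**Figure D4:**
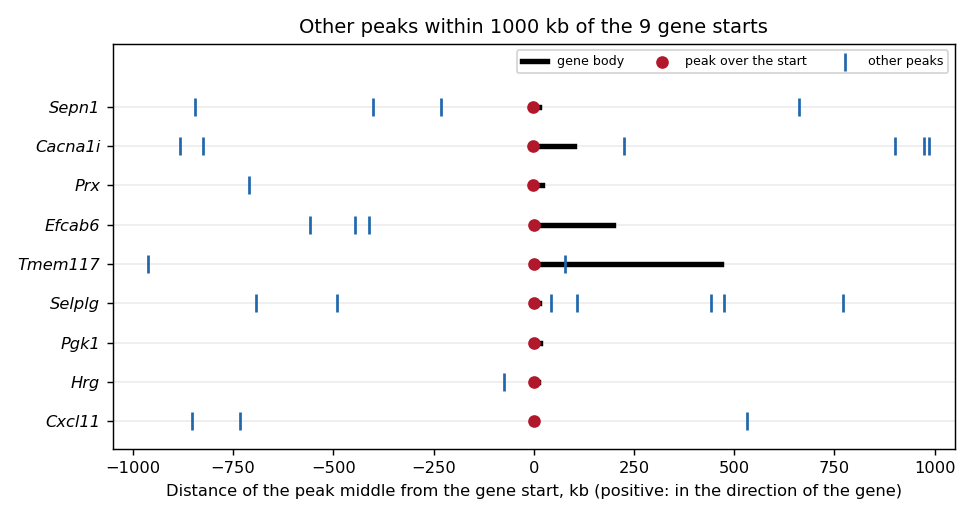
Other peaks (blue ticks) by the distance of their middle from the start of each of the 9 genes in kb (x axis, positive in the direction of the gene), with the peak over the start in red and the gene body in black. Pgk1 has no other peak within 1000 kb, Selplg has 7, and 1 tick lies on the body of Tmem117.

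To see whether relatives of these genes carried macroH2A1 peaks too, 8 lists of genes that share a family, pathway or site of action with 1 of the 9 were drawn up from general knowledge, with the members and earlier results known. Beside the members they held 147 genes, all protein-coding in RefSeq, of which 17 (11.6%) had an assigned peak, against 1329 of 21631 protein-coding genes (6.14%). With peaks within 10 kb of the start only, 7 of the 147 had one, against 1.79% of protein-coding genes, and with peaks above the median width 7, against 3.22%. None of the 17 had a peak over its start, which is rare in general (15 of the 21631, 0.0693%). Long genes and genes with wide gaps around them collect more peaks under nearest-start assignment, and gene length was not accounted for here.

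Among glycolytic enzymes, the partners of Pgk1, 2 of 26 had a peak, among them Eno1, an enolase, with 1 lying 18.75 kb downstream of its start. Of 23 other selenoprotein genes none had a peak. The calcium channel subunits had 4 of 25. Cacna1a, the pore subunit of P/Q-type channels, had a peak 7.76 kb upstream, Cacna1s, the pore subunit of skeletal muscle, 1 inside the gene, Cacng3 1 inside, and the auxiliary subunit gene Cacna2d3 had 3. Cacna1g and Cacna1h, the other T-type pore subunits, had none.

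Peripheral myelin genes had 4 of 14 beside Prx, including Ncmap, Pmp22 and Ndrg1. Ncmap, a myelin-associated membrane protein gene, had a peak inside the gene 0.79 kb from its start, and Pmp22, a major protein of compact myelin, 1 lying 2.73 kb upstream. Ndrg1 had 1 lying 72.1 kb upstream. Of selectins and their ligand genes, 3 of 14 had a peak, among them Emcn and Podxl, with peaks from 46.73 to 81.52 kb from the start. P-selectin itself, Selp, had none.

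The CXC chemokines and receptors had 2 of 21, Cxcl12 with a peak 9.55 kb inside it and its receptor Cxcr4 with 1 lying 30.08 kb downstream. Cxcl9 and Cxcl10, which bind the same receptor as Cxcl11, and that receptor, Cxcr3, had none. Of the 12 other genes listed as cystatin-superfamily plasma proteins, Ahsg was the 1 with a peak, 14.17 kb before its start. Of the 12 other genes listed as EF-hand genes of cilia and sperm, Efcab2 was the 1, with a peak inside the gene. These 2 lists do not hold every gene of their families.

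Beyond the 9, peaks covered the starts of 7 further entries with a symbol: Odz4 (now Tenm4), Insc, Casp12, Olfr126, Olfr1024, 4933412E24Rik and an alpha-defensin entry that carries several symbols. The median width was 1901 bp over the 9 peaks and 1651 bp over these 7. The middle lay before the start in 7 of the 9, and in 2 of the 7. None of the 9 genes fitted whole inside its peak, against 2 of the 7, Olfr1024 and the defensin entry. The 9 were in part singled out for their names, and these contrasts were not tested.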

How the data were processed

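The authors deposited 1 list of macroH2A1 peaks. Reads were mapped with Bowtie to the build NCBIM37 (mm9), as stated in the submitters' processing notes. CCAT, the name of a peak caller, opens each peak name, and the columns are those of ChIPpeakAnno, per the file headers. The threshold and control of the peak calling were not given in the sources used here. No peak of the list was narrower than 1051 bp, so any narrower peak over a gene start would not be seen. Header names stand 1 field left of their values, which was corrected.

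Offsets, widths, distances and promoter CpG ratios were computed with Python 3.11.15, pandas 2.3.3 and SciPy 1.17.1, after a check of the formulas on simulated data. Of 1542 distinct symbols in the list, 1396 matched the RefSeq gene table (GRCm38.p6) when the symbol or a synonym lay on the chromosome of the peak. The members, the lists of relatives and the alternatives were chosen with earlier results of these data known. Named are the 9 genes, relatives with a peak (some genes are not reported here) and, beside these, other genes with a covered start and a few genes singled out after their values were seen. Intervals cover counting error only and treat peaks as independent. Alternatives changed the overlap needed, the width required, the distance counted and the promoter window.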

Additional observations from a re-analysis of the deposited data

How the results depend on the processing

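There are no replicates, so no result has an error between cultures, and no paired analysis was possible because each antibody has 1 library. Of the 16 genes with a symbol and a covered start, 15 had the start at least 100 bp inside the peak, 11 had a peak wider than the median of the list, and 8 had the peak middle within 500 bp of the start, among them 2 of the 9 genes described, Pgk1 and Hrg. No gene of the 9 had a further assigned peak, but 1 (Tmem117) had another peak in the gene or within 10 kb of it, and 3 had another within 100 kb of the start. Of the 147 relatives, 17 had a peak (11.6%, against 6.14% of all protein-coding genes). When only peaks within 10 kb of the start were counted, 7 of the 147 had one, against 1.79% of protein-coding genes. With only peaks wider than the median it was also 7 of the 147, against 3.22%. The median offset was -671 bp among the wider peaks and -431 bp over the 6 genes of like length in RefSeq, an alternative chosen after seeing the data. The median width lay between 1751 and 1926 bp. The lower value rests on only 2 unlike peaks, Pgk1 (2301 bp) and Hrg (1201 bp). The median CpG ratio, with Cacna1i and Prx included, was 0.76 and, from the bases before the start alone, 0.68. The unknown depth and threshold of the list limit what a missing peak means.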

Other observations

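The 14 genes without a symbol whose start was covered were mostly short: 11 were under 1 kb in the list, and 9 lay whole inside their peak, against none of the 9 named genes. Their peaks had a median width of 1851 bp, and 6 of them carried a peak number up to 512. In this group the middle lay before the start at 7 and after it at 7. For a gene that lies whole inside its peak, a covered start and a covered gene are the same observation.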
